A study of Macaca fascicularis with 86 samples.

Results

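The 10 genes described here are transcription factors of lateral and extraembryonic mesoderm: HAND1, HAND2, FOXF1, TBX3, TBX20, MEIS1, MEIS2, PITX1, SNAI2 and TWIST1. They were taken by symbol from a table of 17023 genes, and all 10 were found and passed the filter on low values. The table holds RNA sequencing of 86 regions cut by laser from cryosections of gastrulating crab-eating macaque embryos, with 5 to 50 cells per region (Geo-seq). At embryonic day 18 (E18) there were 2 embryos, with 15 regions from 4 sections and 35 regions from 6 sections. At embryonic day 20 (E20) there was 1 embryo, with 36 regions from 7 sections. The labels give stage, embryo, section and sector, no treatment or genotype, and neither a germ layer nor the end from which sections and sectors were numbered. Values are TPM, a level scaled for gene length and for the total of the library, so levels of different genes can be compared.

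Lateral plate mesoderm leaves the primitive streak and later gives heart, body wall, limb and gut wall. Extraembryonic mesoderm lines the amnion, yolk sac and chorion and forms a collagen-rich mesenchyme. HAND and TWIST proteins are basic helix-loop-helix factors, FOXF1 is a forkhead factor, TBX3 and TBX20 are T-box factors, MEIS1, MEIS2 and PITX1 are homeodomain factors, and SNAI2 is a zinc finger repressor of epithelial genes.

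Between 6194 and 13958 genes reached 1 TPM in a region. The median number was 10564 in E18 embryo 1 and 12186 in E18 embryo 2. It was 8451.5 in sections 1 to 5 of the E20 embryo and 10522.5 in its sections 6 and 7. The depth of the libraries is unknown, because TPM keeps no read counts. The E20 embryo held a division that touches many values below. The 18 yolk sac endoderm markers summed to 107 to 162600 TPM in the 28 regions of its sections 1 to 5, and to 20.4 to 177 TPM in the 8 regions of sections 6 and 7, with medians of 56720 and 30.3 TPM. Levels are therefore also given for these sets of sections, which were separated with earlier results of these data known. Markers of other tissues were present in some regions. CGA, a placental hormone subunit, stood at 4737 TPM in section 2 sector 1 of E18 embryo 1 and at 1745 TPM in section 1 sector 1. PAEP, a gene of the uterine glands, stood at 178 TPM in the latter. In section 3 of the same embryo, sector 1 held 249 TPM of CGA and 119 TPM of PAEP, and sector 5 held 1683 and 124 TPM. CGA was also present in every region of E20 sections 1 to 5, at 32.7 to 1658 TPM, where PAEP was listed at 0. The summed trophoblast markers, CGA among them, had a median of 454 TPM there. In E18 embryos 1 and 2 that median was 87.6 and 51.55 TPM. The listed trophoblast genes did not move together. As embryo means of log2(TPM + 1), CGA and PAGE4 were highest in the E20 embryo, while GCM1, HSD3B1, TEAD3, ENDOU and SDC1 were lowest there. TEAD3 had means of 4.40 and 4.52 in E18 embryos 1 and 2 and 2.52 in the E20 embryo. In a region of several cells, fewer cells of a type and less RNA per cell cannot be told apart.

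In both E18 embryos 8 of the 10 factors had their highest median in regions rich in the fibrillar collagen COL3A1, and FOXF1 and TBX3 did so in E18 embryo 2. In E18 embryo 1 the medians of FOXF1 and TBX3 were highest in regions rich in MESP1, a marker of nascent mesoderm. The levels that define these sets were chosen after the values were seen, and E18 embryo 1 held 3 regions rich in COL3A1. The share of all genes with their highest median in the COL3A1 regions was not counted. The plot of all 86 regions shows the levels region by region. At a level of 10 TPM, between 0 and 10 of the factors were present in a region, with a median of 5. In 12 regions none reached 10 TPM, and in 20 regions 8 or more did. Variation between sectors of the same section, measurement noise included, held most of the variance of each factor. Its share ranged from 59.1% for FOXF1 to 92.8% for MEIS2, against 65.1% for the median gene tested. Differences between embryos held 1.12% to 16.3%, against 19.01% for the median gene. With 86 regions in 17 sections and no correction for these numbers, most variance falls within sections even for a gene without any layout.

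**Figure D1:**
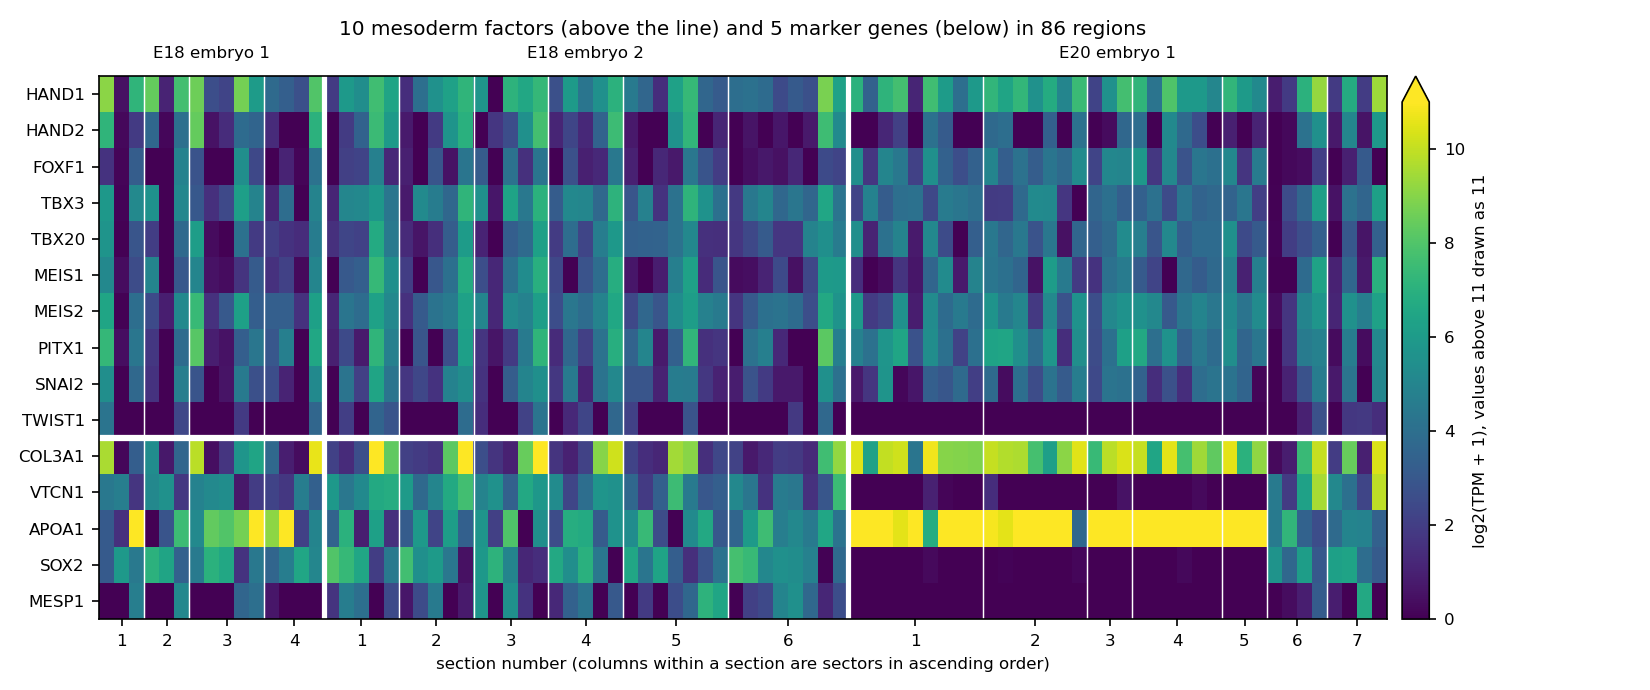
Level of the 10 factors and of 5 marker genes in 86 regions, as log2(TPM + 1), with 1 column per region ordered by embryo, section and sector, and values above 11 drawn as 11. COL3A1 marks mesenchyme, VTCN1 amnion, APOA1 yolk sac endoderm, SOX2 epiblast and MESP1 nascent mesoderm. VTCN1 is also present at E18 in regions with high SOX2. At E18 most factors are bright in the columns where COL3A1 is bright. TWIST1 is at 0 in all 28 regions of E20 sections 1 to 5.

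HAND1, which takes part in heart, extraembryonic mesoderm and trophoblast development, was the most widespread of the factors, at 1 TPM or more in 83 of 86 regions. Its lowest, median and highest levels were 0.42, 64.97 and 536 TPM in E18 embryo 1. In E18 embryo 2 they were 0, 41.1 and 436 TPM. In E20 sections 1 to 5 they were 1.18, 63.5 and 247 TPM, and in sections 6 and 7 they were 0.82, 55.0 and 674 TPM. The ranges of all sets overlapped, and each set held both low and high regions.

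HAND2, the partner of HAND1 in heart and limb development, had a smaller domain. Its lowest, median and highest levels were 0, 2.65 and 338 TPM in E18 embryo 1 and 0, 2.36 and 210 TPM in E18 embryo 2. In E20 sections 1 to 5 they were 0, 1.03 and 35.99 TPM, and in sections 6 and 7 they were 0, 8.57 and 57.1 TPM. Most regions were thus near 0, and the highest regions of both E18 embryos lay above every E20 region. HAND1 exceeded HAND2 in 83 of 86 regions, and the 3 exceptions were in E18 embryo 2. All 32 regions with HAND2 at 10 TPM or more also had HAND1 at that level, which made up 50.0% of the 64 regions with HAND1 at 10 TPM or more. On the log2(TPM + 1) scale the median difference of HAND2 from HAND1 was -2.46 in E18 embryo 1, -1.92 in E18 embryo 2, -4.004 in E20 sections 1 to 5 and -1.70 in sections 6 and 7. The level of 10 TPM was chosen after the values were seen.

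FOXF1, a factor of splanchnic and extraembryonic mesoderm, had a different layout. It ran from 0 to 41.9 TPM with a median of 1.12 TPM in E18 embryo 1, and from 0 to 26.6 TPM with a median of 1.35 TPM in E18 embryo 2. In E20 sections 1 to 5 it was listed at 0 in 0 of 28 regions and ran from 2.27 to 56.6 TPM with a median of 17.5 TPM. In sections 6 and 7 it ran from 0 to 7.57 TPM with a median of 0.22 TPM. FOXF1 was thus above 0 in every region of E20 sections 1 to 5. It reached 1 TPM in 8 of 15 and 20 of 35 regions of the E18 embryos and in 2 of 8 regions of E20 sections 6 and 7. All 26 regions with FOXF1 at 10 TPM or more also had HAND1 at that level. Its paralogue FOXF2 reached 10 TPM in 5 regions, and 2 of these had FOXF1 at 10 TPM or more.

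TBX3, a T-box repressor with roles in limb and heart, was spread more evenly. It ran from 0 to 73.2 TPM with a median of 14.4 TPM in E18 embryo 1, and from 0.59 to 147 TPM with a median of 20.5 TPM in E18 embryo 2. In E20 sections 1 to 5 it ran from 0 to 37.5 TPM with a median of 11.6 TPM, and in sections 6 and 7 from 0.06 to 75.0 TPM with a median of 11.1 TPM. The ranges of all sets overlapped. TBX20, a T-box factor of the heart, had medians of 2.94 TPM in E18 embryo 1, 8.60 TPM in E18 embryo 2, 12.3 TPM in E20 sections 1 to 5 and 4.15 TPM in sections 6 and 7. Its highest level was 105 TPM, in section 1 sector 4 of E18 embryo 2, and in E20 sections 6 and 7 no region exceeded 9.74 TPM.

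MEIS2 exceeded its paralogue MEIS1 in 68 of 86 regions. Both are cofactors of HOX and PBX proteins. MEIS2 had medians of 9.01, 18.2, 25.6 and 27.8 TPM in E18 embryo 1, E18 embryo 2, E20 sections 1 to 5 and E20 sections 6 and 7. The medians of MEIS1 in the same order were 3.37, 6.13, 9.55 and 6.43 TPM, with a highest level of 163 TPM in E18 embryo 2. PITX1, a factor of hindlimb and pituitary, had medians of 8.76, 5.29, 20 and 12.6 TPM, and its highest levels were 278, 303, 98.95 and 33.8 TPM. The highest E18 regions were above every E20 region for PITX1, while the E20 medians were above the E18 medians.

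**Figure D2:**
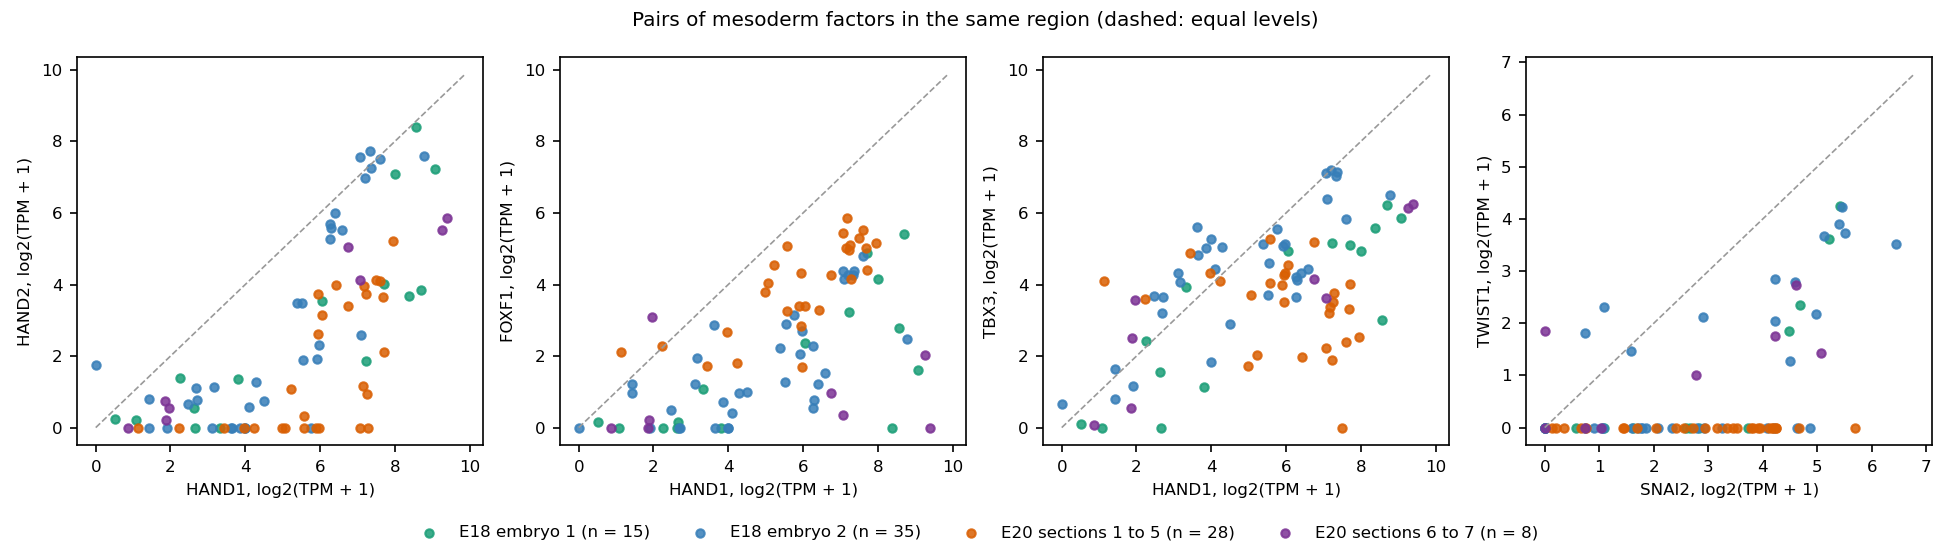
Levels of pairs of factors in the same region, both axes log2(TPM + 1), 1 point per region, with the dashed line marking equal levels. HAND2 lies under HAND1 in 83 of 86 regions, and TWIST1 is at 0 in all 28 regions of those sections whatever the SNAI2 level.

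SNAI2, a repressor of cadherins in epithelial to mesenchymal transition, had medians of 5.02 TPM in E18 embryo 1, 5.95 TPM in E18 embryo 2, 8.57 TPM in E20 sections 1 to 5 and 3.43 TPM in E20 sections 6 and 7. Its highest level was 86.01 TPM, in E18 embryo 2. TWIST1, a factor of mesenchyme and neural crest, was the scarcest of the 10. It was listed at 0 in 63 of 86 regions, including 28 of 28 in E20 sections 1 to 5. That set of sections also had the lowest median number of genes at 1 TPM or more. TWIST1 was at 1 TPM or more in 4 of 15 regions of E18 embryo 1, 14 of 35 of E18 embryo 2 and 5 of 8 of E20 sections 6 and 7. Its highest levels there were 18.02, 17.7 and 5.64 TPM. SNAI2 was at 10 TPM or more in 12 of the 28 regions where TWIST1 was listed at 0 throughout. All 7 regions with TWIST1 at 10 TPM or more had SNAI2 and HAND1 at that level too. Its paralogue TWIST2 had a highest level of 9.31 TPM, in E18 embryo 2, and of 0.22 TPM in E20 sections 1 to 5. TWIST1 exceeded TWIST2 in 22 regions, and TWIST2 exceeded TWIST1 in 11.

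The regions were next grouped by a pair of genes that are not among the 10, COL3A1 and MESP1, a factor of mesoderm leaving the streak. The levels used, 100 TPM of COL3A1 and 10 TPM of MESP1, were chosen after the values were seen, so the ranges are a description. In E18 embryo 2, 12 regions had COL3A1 at 100 TPM or more, 11 others had MESP1 at 10 TPM or more, and 12 had neither. HAND2 ran from 10.3 to 210 TPM with a median of 94.0 TPM in the COL3A1 regions. It ran from 0 to 10.1 TPM with a median of 1.18 TPM in the MESP1 regions and from 0 to 3.91 TPM with a median of 0.25 TPM in the rest. The COL3A1 regions did not overlap the others, although the nearest values, 10.3 and 10.1 TPM, were close. TBX3 behaved differently: its medians were 38.2, 32.1 and 7.35 TPM in the same order, and all 11 MESP1 regions held 11.5 TPM or more. Its median in the COL3A1 regions lay between separate sets. TBX3 ran from 55.9 to 147 TPM in the 6 regions where most factors, TBX3 included, had the highest level of their section. In the other 6 COL3A1 regions it ran from 11.7 to 20.5 TPM, with a median of 17.1 TPM.

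MEIS1 had medians of 62.7 TPM in the COL3A1 regions, 6.13 TPM in the MESP1 regions and 0.47 TPM in the rest, and PITX1 had medians of 49.8, 1.91 and 4.02 TPM. HAND1 had medians of 114, 18.5 and 12.5 TPM. MEIS2 had medians of 59.1, 17.1 and 5.82 TPM. TBX20 had medians of 29.3, 2.38 and 3.52 TPM, and SNAI2 had medians of 29.5, 2.01 and 2.52 TPM. FOXF1 had medians of 4.20, 3.19 and 0.16 TPM. The medians of HAND1, MEIS1, MEIS2 and FOXF1 therefore stepped down from COL3A1 regions to MESP1 regions to the rest, while those of PITX1, TBX20 and SNAI2 were lowest in the MESP1 regions. The median of TWIST1 was 0 in both of the latter sets, and it was at 1 TPM or more in 8 of 12, 4 of 11 and 2 of 12 regions.

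E18 embryo 1 held 3 regions with COL3A1 at 100 TPM or more and 4 others with MESP1 at 10 TPM or more. HAND2 stood at 148, 338 and 134 TPM in the COL3A1 regions of sections 1, 3 and 4. In the MESP1 regions, sector 3 of sections 1 and 2 and sectors 4 and 5 of section 3, it stood at 2.65, 15.1, 13.4 and 10.7 TPM. HAND2 was again higher in every COL3A1 region. FOXF1 was the reverse in part: 2.07, 5.94 and 16.7 TPM in the COL3A1 regions and 8.34, 28.5, 41.9 and 4.16 TPM in the MESP1 regions, so the sets overlapped. HAND1 was high in both, at 258 to 536 TPM and 64.97 to 417 TPM. COL3A1 in the MESP1 regions was 8.88 to 85.2 TPM. In E20 sections 6 and 7, the 1 region with MESP1 at 10 TPM or more, section 7 sector 3, had FOXF1 at 7.57 TPM, TBX3 at 10.9 TPM and MEIS2 at 25.2 TPM. HAND1 was 2.92 TPM there and HAND2 0.47 TPM. The 4 COL3A1 regions of E20 sections 6 and 7 held HAND2 at 16.5 to 57.1 TPM, and FOXF1 had a median of 0.61 TPM in them. In the 24 COL3A1 regions of E20 sections 1 to 5 HAND2 had a median of 1.18 TPM and was listed at 0 in 9. FOXF1 had a median of 19.6 TPM in these 24. In the 4 other regions of sections 1 to 5 the medians were 0 TPM for HAND2 and 2.90 TPM for FOXF1.

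Other markers moved with some of these values. Of the 3 COL3A1 regions of E18 embryo 1, those of sections 1 and 3 held the CGA and PAEP given above, and so did sector 5 of section 3 among the MESP1 regions. Section 2 sector 1 of E18 embryo 1, with CGA at 4737 TPM, had HAND1 at 335 TPM, TBX3 at 47.2 TPM and MEIS1 at 30.3 TPM, with COL3A1 at 40.0 TPM and FOXF1 listed at 0. The highest HAND1 levels of all, 619 and 674 TPM in sector 4 of E20 sections 6 and 7, came with 758 and 965 TPM of VTCN1, a marker of amnion. The COL3A1 regions of E18 embryo 2 held 6.61 to 202 TPM of VTCN1, with a median of 100 TPM. In its regions with neither COL3A1 nor MESP1 at the chosen level the median was 15.7 TPM. In E18 embryo 1 these medians were 20.3 and 29.5 TPM, and the latter regions had a SOX2 median of 87.8 TPM. At E18, VTCN1 was thus also present in regions rich in SOX2, a marker of epiblast. The part of trophoblast and amnion RNA in these levels was not tested.

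Within a section of E18 embryo 2 the 10 factors reached their highest level in the same region almost without exception. The shared region of a section was taken as the one with the most of these highest levels. Some sharing is therefore set by that choice. Of 60 highest levels, 10 factors in 6 sections, 59 were in a shared region, and the exception was SNAI2 in section 5. These regions were sector 4 of section 1, sector 5 of sections 2, 3, 4 and 5, and sector 7 of section 6. HAND2 in them was 182, 125, 210, 187, 152 and 193 TPM from section 1 to section 6. FOXF1 was 26.6, 18.3, 18.2, 19.9, 19.8 and 4.59 TPM. TWIST1 was 10.5, 14, 17.7, 11.7, 5.93 and 12.3 TPM. HAND2 thus varied less than 2-fold over the 6 sections, and FOXF1 was lower in section 6 than in the others.

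The other 6 regions of E18 embryo 2 with COL3A1 at 100 TPM or more each lay in the sector next to these. FOXF1 was 1.34, 0.46, 1.88, 1.44, 0.70 and 3.82 TPM in them, and HAND2 was 63.1, 50.4, 45.3, 10.3, 47.3 and 37.6 TPM. That these levels are lower than in the shared region of the section is set by the choice of that region. It holds the highest FOXF1 and HAND2 level of its section, so the difference is a description. COL3A1 itself was 299 to 703 TPM there and 198 to 3631 TPM in the regions with the highest levels of the factors. VTCN1 was 52.3 to 186 TPM against 6.61 to 202 TPM. In E18 embryo 1, 31 of 40 highest levels were in a shared region. In the E20 embryo 39 of 65 were, with all 10 factors sharing sector 4 in section 6 and 8 of 10 sharing sector 4 in section 7. In E20 sections 1 and 4 the region counted as shared held 2 of 9 and 3 of 9 highest levels. The same count over other genes was not made.

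Rank correlations across regions are given as descriptions, since regions of an embryo share their source. Between the factors, the median Spearman's rho over 45 pairs was 0.75 in E18 embryo 1 (15 regions) and 0.68 in E18 embryo 2 (35 regions), and all 45 pairs were above 0 in both. The same medians over pairs of other genes were not taken. TWIST1 was listed at 0 in 11 of the 15 and 21 of the 35 regions, so its values rest largely on ties. In E20 sections 1 to 5 (28 regions) the median over 36 pairs was 0.27, and 28 were above 0. Over the 8 regions of sections 6 and 7 the median of 45 pairs was 0.89, and all 45 were above 0. HAND2 and MEIS1 had the highest value in E18 embryo 2, 0.89. All 10 factors had a negative rho with the epiblast marker score in both E18 embryos, from -0.91 to -0.64 and from -0.77 to -0.41.

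TBX3 had a negative rho with all 8 other factors measured above 0 in E20 sections 1 to 5. It was -0.62 with FOXF1, -0.43 with HAND2 and -0.40 with HAND1. With the mesenchyme score it was -0.60, while FOXF1 had 0.85, TBX20 0.81 and HAND1 0.80. With the score of yolk sac endoderm markers TBX3 had 0.51 and HAND1 -0.79. In the same embryo, TBX3 and the mesenchyme score had a rho of 0.86 over the 8 regions of sections 6 and 7, and in the E18 embryos 0.70 and 0.62. Section 2 sector 4 held the highest TBX3 level of sections 1 to 5, 37.5 TPM, with HAND2 listed at 0. Section 2 sector 7 had TBX3 listed at 0, with HAND1 at 181 TPM and FOXF1 at 38.2 TPM.

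**Figure D3:**
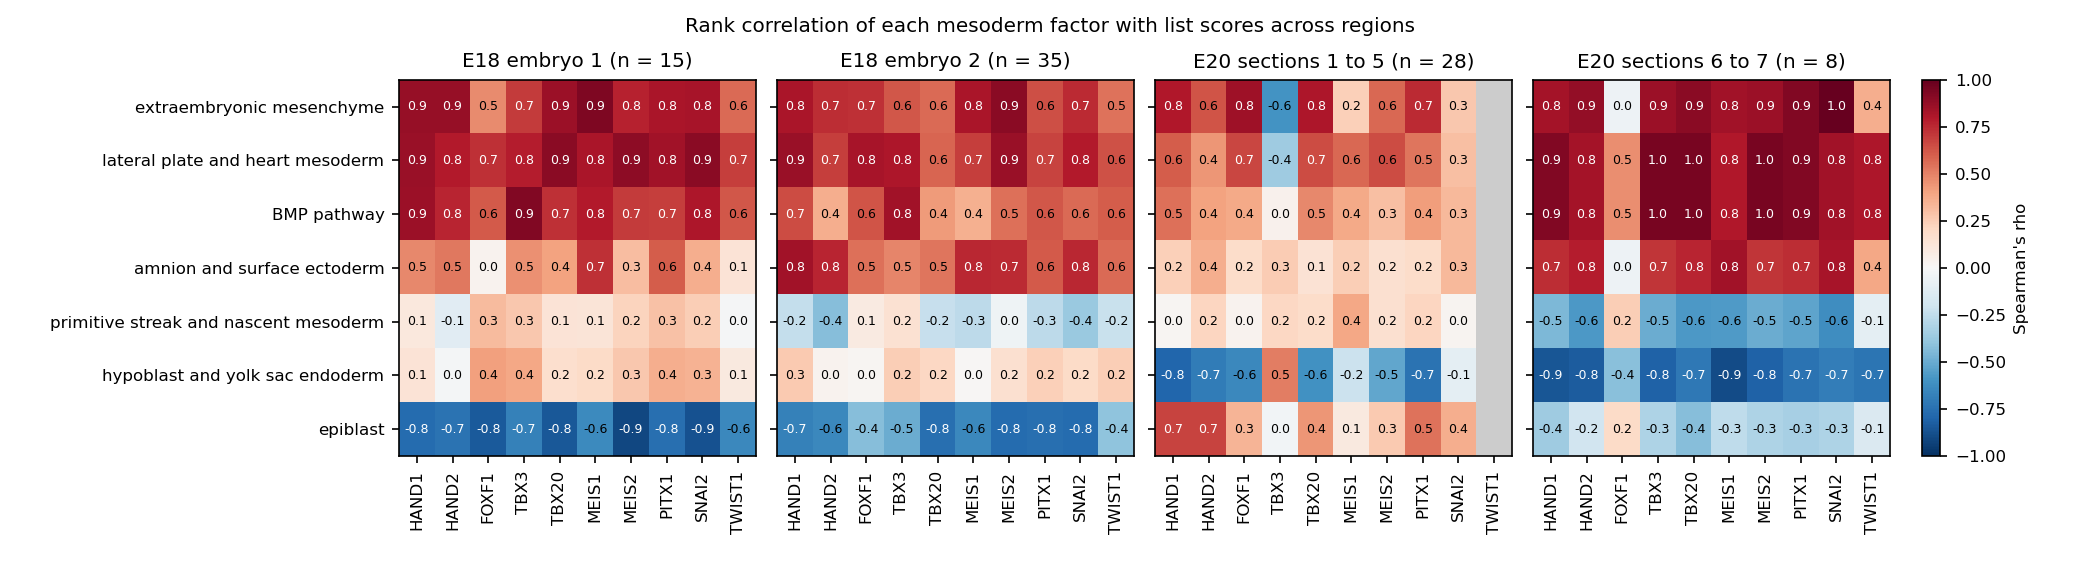
Spearman's rho across regions between each factor and the mean score of 7 marker lists, in both E18 embryos and in the divided sections of the E20 embryo, with values printed to 1 decimal and grey where the gene is listed at 0 in all regions. In E20 sections 1 to 5, TBX3 has a negative value with mesenchyme (-0.60) and a positive one with yolk sac endoderm (0.51), opposite in sign to HAND1, FOXF1 and TBX20.

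The position of a region within its section was compared next, as the change in log2(TPM + 1) from the first to the last sector, with section as a block. The labels do not say where sector numbers start, so the direction is that of the numbering. Of the 10 factors, 6 rose with sector number, MEIS1, HAND2, SNAI2, MEIS2, TBX3 and FOXF1, and none fell (limma with Benjamini-Hochberg adjustment over 15216 genes, threshold 0.05). Among all genes tested 3.24% were called, and 2.48% were called as rising. The median slope of the 10 factors was 1.84, against 0.07 for all genes. MEIS1 rose by 2.87 ± 0.58 (SE; limma adjusted p = 0.0031) and HAND2 by 2.64 ± 0.71 (adjusted p = 0.025). The slopes of the other 4 that passed ran from 1.61 for FOXF1 to 1.91 for SNAI2. With a pseudocount of 0.1 in place of 1, TBX3 (1.98, adjusted p = 0.11) and SNAI2 (2.42, adjusted p = 0.091) did not pass. HAND1 had a slope of 2.07 ± 0.69 (limma adjusted p = 0.076) and TWIST1 one of 1.07 ± 0.34 (adjusted p = 0.058). TBX20 and PITX1 had slopes of 1.07 and 1.32 and did not pass either.

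For 9 of 10 factors the slope was steepest in E18 embryo 2; FOXF1 had slopes of 2.89 ± 1.25 (SE) in E18 embryo 1, 2.32 ± 0.64 in E18 embryo 2 and 0.34 ± 0.64 at E20. Slopes were above 0 for 10 of 10 factors in that embryo, 9 of 10 in the E20 embryo and 6 of 10 in E18 embryo 1. Taking E18 embryo 1, E18 embryo 2 and E20 in turn, HAND2 had slopes of -0.58 ± 2.21 (SE), 5.78 ± 1.00 and 1.32 ± 0.96. MEIS1 had -0.68 ± 1.51, 5.09 ± 0.76 and 2.55 ± 0.90 in the same order. COL3A1 had -0.48 ± 2.88, 7.60 ± 1.44 and 1.98 ± 1.23, with the same signs as HAND2 and MEIS1 in each embryo; the part of mesenchyme content in the slopes was not tested. Without E18 embryo 2, 0 of 10 factors passed, and 0 of all genes did. Without E18 embryo 1, 7 passed (7.42% of all genes), but FOXF1 did not (1.29, adjusted p = 0.067). The regions were treated as independent within a section, so these p-values are too small. With the embryo as the replicate, as slopes of 3 embryos tested against 0, 0 of 10 passed and 0 of all genes did (lowest limma adjusted p of the 10 = 0.83). A moderated F test of equal slopes in the 3 embryos, added after the data were seen, called 0 of 10 factors (0.48% of all genes), with an adjusted p of 0.077 for MEIS1 and 0.090 for HAND2. Unadjusted, 6 of the 10 were under 0.05 in it, and the share of all genes under 0.05 was not counted for that test.

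**Figure D4:**
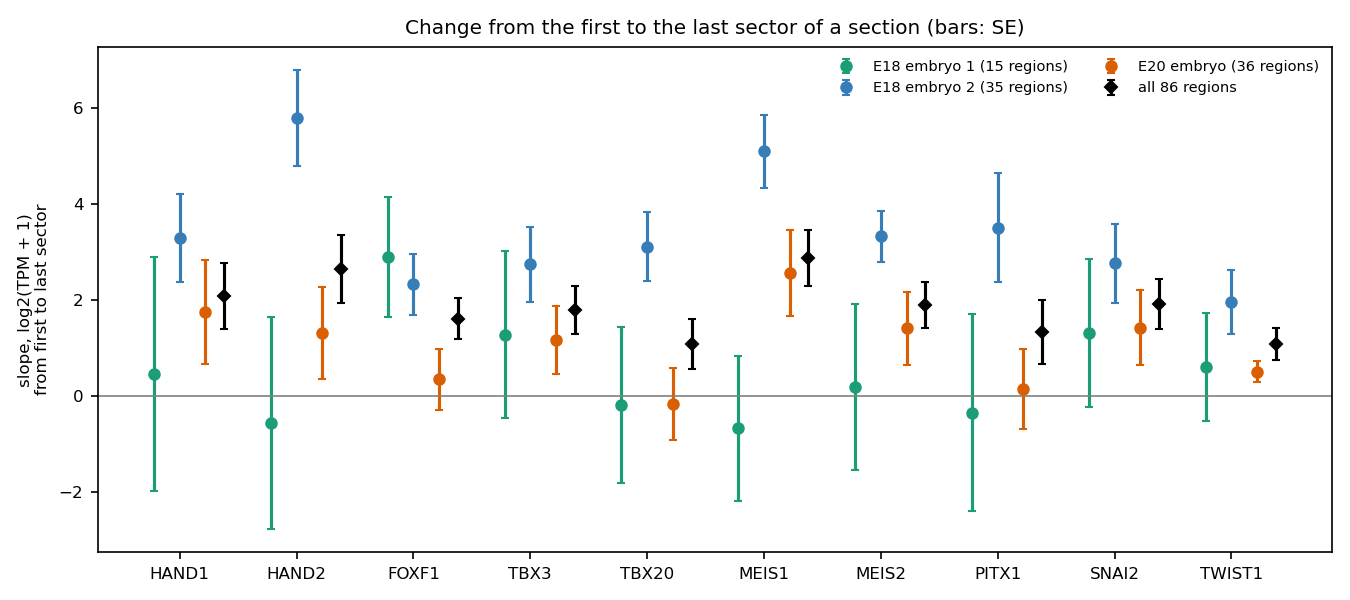
Change in log2(TPM + 1) from the first to the last sector of a section for each factor, per embryo and over all 86 regions, with bars of 1 SE. E18 embryo 2 lies above 0 for all 10 factors, with HAND2 at 5.78 and MEIS1 at 5.09, while E18 embryo 1 has wide bars that cross 0 for 9 of 10.

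Along the sections, from the first to the last of an embryo, 1 of 10 factors passed (limma, 10.7% of all genes called, 8.81% as rising and 1.89% as falling). FOXF1 fell by 1.62 ± 0.49 (SE; adjusted p = 0.021). Its slope per embryo was -0.15 ± 1.46 and -1.01 ± 0.73 at E18, and -2.89 ± 0.73 at E20. Without the E20 embryo the slope was -0.75 (adjusted p = 0.88), and with the E20 embryo entered as its divided sets of sections it was -0.55 (adjusted p = 0.88). The call thus rested on the E20 embryo and on the division within it. None of the 10 factors had section slopes that differed between embryos (limma F test, 10.1% of all genes called). TWIST1 had the lowest unadjusted p of the 10 in that F test, 0.045, and 3563 of 15216 genes had one under 0.05. The median section slope of the 10 was -0.46, against 0.11 for all genes.

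Sections were also compared as separate levels within each embryo. In the E20 embryo 2 of 10 factors differed between sections (limma F test, 18.5% of all genes called). FOXF1 had section means of 3.74 to 4.15 on the log2(TPM + 1) scale in sections 1 to 5, and of 0.65 and 1.01 in sections 6 and 7 (adjusted p = 0.0039). TWIST1 had means of 0 in sections 1 to 5, where it was listed at 0 throughout, and of 0.94 and 1.26 in sections 6 and 7 (adjusted p = 0.0061, and 0.11 after quantile normalization). The change of FOXF1 and TWIST1 between sections was thus in opposite directions. HAND1, with section means of 4.78 to 6.54, did not pass (adjusted p = 0.93). In both E18 embryos 0 of 10 factors passed (0% of all genes in limma's F test), and 0 of 10 had an unadjusted p under 0.05. Over all genes, 675 in E18 embryo 1 and 345 in E18 embryo 2 had an unadjusted p under 0.05.

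**Figure D5:**
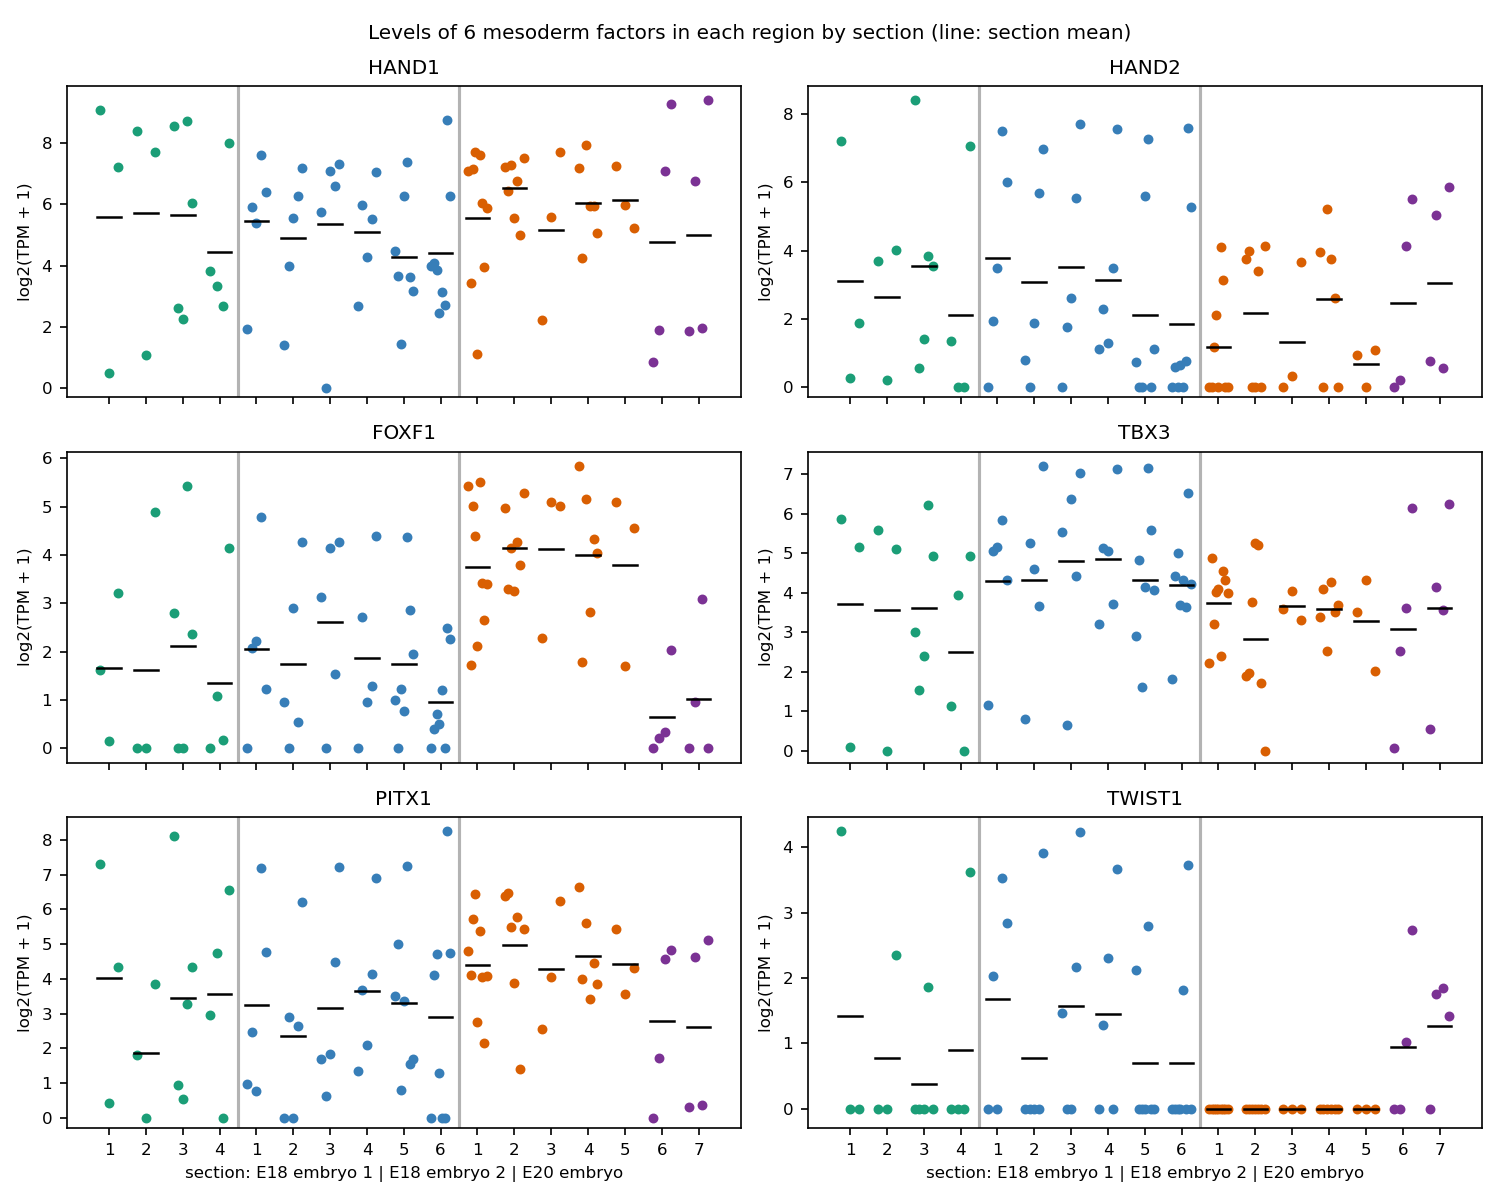
Levels of 6 factors in each region as log2(TPM + 1), 1 point per region, by section of each embryo, with a line at the section mean. FOXF1 has section means of 3.74 to 4.15 in E20 sections 1 to 5 and of 0.65 and 1.01 in sections 6 and 7, TWIST1 appears at E20 in sections 6 and 7 alone, and HAND1 and TBX3 have no such step.

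Stage was compared on embryo means over regions, with 2 embryos at E18 and 1 at E20. None of the 10 factors passed (limma on 3 embryo means, 11.4% of all genes called, 2.64% as higher and 8.75% as lower at E20), and 1, FOXF1, had an unadjusted p under 0.05. On the log2(TPM + 1) scale, FOXF1 had means of 1.72 and 1.75 at E18 and 3.25 at E20, a difference of 1.52 ± 0.73 (SE; adjusted p = 0.18). After quantile normalization the difference was 1.92 (adjusted p = 0.020), which passed. PITX1 had means of 3.28, 3.10 and 4.17, a difference of 0.98 ± 0.54 (adjusted p = 0.27). HAND2 had means of 2.90, 2.78 and 1.93, a difference of -0.91 ± 0.68 (adjusted p = 0.49). For these 3 genes, and for HAND1 and TWIST1, the E20 mean lay outside the pair of E18 means. The comparison has 1 E20 embryo and 1 residual degree of freedom. Its SEs and p-values rest on a spread pooled over genes, and they do not measure a gene's own spread between embryos. The FOXF1 SE of 0.73, for example, stands beside E18 means of 1.72 and 1.75. Unadjusted p-values under 0.05 were more frequent among all genes tested than among the 10 factors. The composition of the E20 embryo's sections and its stage cannot be told apart. The median difference of the 10 factors was 0.20, against -0.44 for all genes.

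Genes related to the 10 factors were read in the same fits. In the stage comparison their values describe 1 E20 embryo, most of whose regions came from sections 1 to 5, against 2 E18 embryos. Of 18 partners and paralogues, 3 passed as lower in the E20 embryo. MEIS3, TCF3, which encodes a partner of HAND and TWIST proteins, and PBX2, a MEIS partner, were lower, with differences of -2.19, -1.83 and -1.50. Along the sections MEIS3, TCF3 and SNAI1 rose and TBX5 fell. The slopes of MEIS3, TCF3 and SNAI1 were steepest in the divided E20 embryo (3.575, 2.57 and 1.96), and that of TBX5 in E18 embryo 2 (-1.46). The part of the E20 division in the section slopes of these and the following genes was not tested.

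Of 17 lateral plate and heart genes tested, KDR, the VEGF receptor of endothelial precursors, passed as higher in the E20 embryo, by 1.73, while MSX2 and BMP4 were lower, with differences of -1.92 and -1.75. With sector number, KDR, OSR1, TCF21 and MEF2C rose, by 1.36, 1.23, 1.07 and 1.06, and none of the 17 fell. Along the sections GATA6 and FOXC1 rose and KDR fell. GATA6 (1.65) and KDR (-3.06) had their steepest section slopes in the E20 embryo, and FOXC1 (1.65) in E18 embryo 2. Of 16 BMP pathway genes tested, none passed as higher in the E20 embryo and 4 passed as lower: ID1 (-2.65), BMP7 (-2.27), ID3 (-1.88) and BMP4. The BMP ligand BMP5 and the BMP inhibitor BAMBI rose with sector number, by 2.19 and 1.56, and BMP7 and ID3 rose along the sections. BMP7 had section slopes of -0.05 in E18 embryo 1, 0.85 in E18 embryo 2 and 2.75 at E20. Those of ID3 in the same order were -0.78, 0.28 and 2.44.

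Of the 15 mesenchyme genes several passed in both comparisons. With sector number 7 rose and none fell, with COL3A1 (3.63), POSTN (2.94), LUM (2.86) and COL1A2 (2.75) having the steepest slopes. The median of the 15 was 1.96, near the 1.84 of the factors. In the E20 embryo 7 of the 15 passed as higher and none as lower, with LUM at 5.26 and COL3A1 at 3.76, and their median was 1.24 where that of the factors was 0.20. Along the sections LUM fell and the other 14 did not pass. The section slopes of LUM were -0.34 in E18 embryo 1, -1.50 in E18 embryo 2 and -6.45 at E20.

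The genes whose levels were most like each factor were found by mean Spearman's rho over the 3 embryos, among 8830 genes with a mean of at least 5 TPM. TPM1, a tropomyosin gene, was nearest to HAND1 (0.89), MMP28 to HAND2 (0.79) and COLEC12 to FOXF1 (0.77). CLCN5 was nearest to TBX3 (0.73), ADAM12 to TBX20 (0.87) and HEY1, a Notch target, to MEIS1 (0.76). HAND1 itself was nearest to MEIS2 (0.82) and to SNAI2 (0.76). The basement membrane collagen COL4A2 was nearest to PITX1 (0.86), and LIX1 to TWIST1 (0.64). Several genes recurred: HAPLN1, which links hyaluronan to proteoglycans, was among the 3 nearest to HAND1, FOXF1 and MEIS2, KRT19 among those of HAND1 and PITX1, and MSX2 among those of TBX3 and TWIST1. The values of TWIST1 were the lowest of the 10 factors.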

How the data were processed

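Per the labels, RNA was extracted from laser-captured regions and sequenced. The submitters' processing notes name fastp, HISAT2 and StringTie, without versions. Which build and annotation were used is not given in the sources used here. No coordinates are printed. The deposited values are the authors' TPM (transcripts scaled by length and library total), with 1 column per region and 0 columns unmatched. Columns sum to 495547 to 777988 TPM, so part of what was normalized over is not analysed here. TPM keeps no counts, so no counting interval is given.

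Of all genes, 15216 reached 1 TPM in 10 or more regions. They were modelled as log2(TPM + 1) with limma 3.58.1 (eBayes with trend; R 4.3.3), and calls used a Benjamini-Hochberg threshold of 0.05. The fold changes are on that scale and understate changes of low genes. The stage was tested on embryo means, section and sector trends on regions with embryo or section as a block, and sections within an embryo by F tests. Tests over regions count cuts from 1 embryo as replicates, which makes their p-values too small. The models were tested on simulated data in which regions were drawn independently, without embryo or section effects. That test therefore does not cover the dependence between regions of an embryo. Descriptions used Python 3.11.15 with pandas 2.3.3 and scipy 1.17.1. List scores are mean z-scored log2 values within a set of regions.

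The 10 factors were always named. From each of 13 lists up to 4 called genes were named per comparison, largest effect first, with the 3 genes most like each factor. The factors and lists were chosen with earlier results of these data known. The results of 1 listed gene are not reported here.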

Additional observations from a re-analysis of the deposited data

How the results depend on the processing

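Counts of the 10 factors past the threshold depended on the embryos. Leaving out each embryo gave 0 to 7 for the sector trend (main 6) and 0 to 1 for the section trend (main 1); without E18 embryo 2 the sector count was 0, and without the E20 embryo the section count was 0. Both counts were 0 with embryo slopes tested against 0, an alternative added after the data were seen. The section count was also 0 with genes detected as a covariate, with the E20 embryo split into its divided sets of sections, and with section means. Quantile normalization gave 1 in the stage comparison (main 0) and 1 between E20 sections (main 2). No pseudocount or filter alternative moved a count by over 1.5 times; with a pseudocount of 0.1 the sector trend kept 4 calls, and TBX3 and SNAI2 lost theirs. The cause was not tested.

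None of the slopes that reversed was called. Along sections they were MEIS2 (-0.077) and TWIST1 (-0.058) after quantile normalization, TWIST1 with the covariate (-0.098) and as embryo slopes (-0.095), and TBX20 (0.36), PITX1 (0.12) and TWIST1 (-0.57) with the split E20 embryo. With each embryo left out in turn, section slopes ran from -1.52 to 0.68 for HAND2, from -1.23 to 0.16 for MEIS1, from -0.78 to 0.11 for TBX20, from -1.21 to 0.15 for PITX1 and from -0.73 to 0.57 for TWIST1. Positive HAND2 and MEIS1 slopes came without E18 embryo 2, and positive TBX20 and PITX1 and negative TWIST1 slopes without the E20 embryo. Sector slopes ran from -0.18 to 1.97 for TBX20 and from -0.024 to 2.17 for PITX1, negative without E18 embryo 2.

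No paired analysis was possible because section and sector numbers name positions and do not pair embryos. With 1 E20 embryo and unknown depth, absence of a factor listed at 0 is not shown.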
